A study of Mus musculus with 2 samples.

Results

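The Obox genes and pseudogenes are the 53 entries of the RefSeq table for GRCm38.p6, among 49980 placed genes, whose symbol begins with *Obox*. Of these, 6 are protein-coding (*Obox1*, *Obox2*, *Obox3*, *Obox5*, *Obox6* and *Obox7*) and 47 are pseudogenes. The pseudogenes comprise 38 named for *Obox4*, 8 for *Obox3* and 1 for *Obox6*, and the table holds no coding gene named *Obox4*. A total of 51 members lie on chromosome 7 between 14517971 and 15839679, an interval of 1.32 Mb called the Obox interval below. *Obox3-ps8* and *Obox6-ps1* lie apart on chromosome 17.

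Binding was mapped by chromatin immunoprecipitation and sequencing (ChIP-seq) in C2C12, an established mouse myoblast line. The cells were a single clone selected in puromycin, with a doxycycline-inducible, codon-altered transgene for MMH, a chimera of the mouse Dux homeodomains and the carboxy-terminal part of human DUX4. The study made 2 libraries from cells of that clone, both after an 18 h induction in doxycycline at 2 ug/ml. The first was precipitated with the DUX4 antisera MO488 and MO489. The control is labelled as HA antibody, whereas the series' design text names an antibody to GFP. No expression was measured in these files, so neither the myoblast identity of the cells nor transcription of any *Obox* gene could be checked. The peak caller kept 26253175 antisera fragments and 23412256 control fragments after removal of duplicates. With 1 library per group there was no replicate, and no p-value is given between groups of genes, since the members are copies of one another and some share peaks.

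Obox (oocyte-specific homeobox) genes encode homeodomain proteins that are made in the mouse oocyte and early embryo, where they take part in activating the embryonic genome. They form a rodent family that grew by tandem duplication beside *Crx*, a homeobox gene of the retina. Dux is a double-homeodomain factor of the same developmental window, and it binds DNA through the homeodomains that MMH carries.

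How alike some of the copies are can be read from their promoters. Of the 53 members, 5 matched the RefSeq promoter table (GRCm38.p6), which gives 250 bases before to 50 after the transcript start. All 5, *Obox1*, *Obox2*, *Obox3*, *Obox5* and *Obox7*, share an identical run of 25 bases. It is shown in capitals for the 4 genes in which it lies wholly before the start, with flanks in lower case, 5′ to 3′ along the gene. *Obox1* is at chr7:15547109-15547233 (plus strand), *Obox5* at chr7:15750210-15750334 (plus), *Obox7* at chr7:14659574-14659698 (plus) and *Obox3* at chr7:15639812-15639936 (minus).
Obox1: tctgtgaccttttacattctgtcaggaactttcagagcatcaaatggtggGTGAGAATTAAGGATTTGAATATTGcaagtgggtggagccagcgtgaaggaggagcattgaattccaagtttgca
Obox5: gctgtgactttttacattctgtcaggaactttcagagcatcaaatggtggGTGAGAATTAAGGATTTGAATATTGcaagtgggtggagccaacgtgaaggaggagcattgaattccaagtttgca
Obox7: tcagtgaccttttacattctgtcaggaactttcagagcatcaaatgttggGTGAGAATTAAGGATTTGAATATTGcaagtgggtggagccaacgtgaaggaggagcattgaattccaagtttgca
Obox3: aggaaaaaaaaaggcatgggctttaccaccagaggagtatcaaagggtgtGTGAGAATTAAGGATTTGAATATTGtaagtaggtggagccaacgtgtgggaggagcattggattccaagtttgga

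In local alignments of these promoter windows, *Obox1* and *Obox2* were identical over 203 columns, and *Obox5* and *Obox7* matched at 97.1% of 273 columns. *Obox3* was the most distant copy, at 93.3% of 164 columns with *Obox1* and 88.1% of 67 columns with *Obox2*. No peak overlapped any of the 5 promoter windows. Motif letters were searched on both strands. GATTNAATC, the core of a Dux-type sequence, matched 0 of the 5 windows and 0.268% of the table's 32851 promoter windows. The same core with T before it and A after it matched 0 of 5 and 0.0335%. A form closer to the human DUX4 site, TAAT and AATCA with any 2 bases between, matched 0 of 5 and 0.350%. These counts say only that the letters are not in these windows. The sequences under the peaks were not analysed here.

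A member was counted as having a peak when the summit of one lay inside it or within 5 kb of either end. By this rule 28 of the 53 members (52.8%) had a peak, against 33.4% of all genes, 43.2% of protein-coding genes, 19.0% of pseudogenes and 26.2% of genes on chromosome 7. Within 1 kb the share of the members was 17.0%. This lay below the 23.5% of all genes and the 35.0% of protein-coding genes, and above the 6.38% of pseudogenes. All 6 protein-coding *Obox* genes had one, against 28.1% of the 4004 protein-coding genes of their length range (6289 to 14472 bp). Of the 47 pseudogenes, 22 (46.8%) had one. The peaks called near members numbered 41, and 1 of them served both *Obox3* and *Obox4-ps32*. Copies that are alike can share reads, though likeness was measured only in 5 promoter windows and not at the peaks. The treatment of multiply mapping reads was not stated by the submitters' notes or file headers used, which leaves the part of each copy in a peak uncertain.

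The members lie in a stretch of chromosome 7 where peaks were dense as a whole. The Obox interval held 70 peaks, or 53.0 per Mb (counting SE 6.33), against 17.0 per Mb (SE 0.345) along chromosome 7. Within the interval, the 5 kb flanks of members held 38 peaks at 81.8 per Mb (SE 13.3) and the remaining 699 kb away from members held 29 at 41.5 per Mb (SE 7.70). The bodies of the members, 158 kb in all, held 3 peaks, or 19.0 per Mb (SE 11.0). Of the 9 genes of other families in the interval, 6 (66.7%) had a peak, but the highest peak of each of the 6 was one already counted for an *Obox* member. The counts at members are therefore read beside this local density, and their part in it was not tested.

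**Figure D1:**
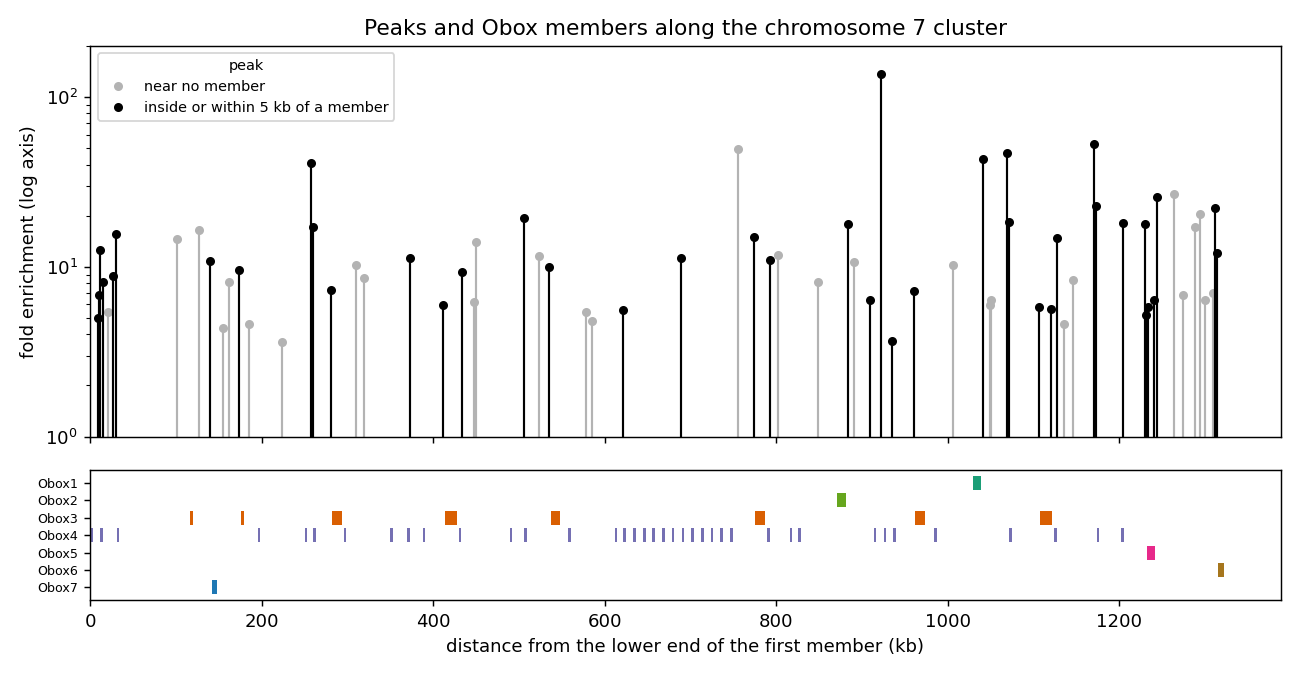
Peaks and Obox members along the chromosome 7 cluster. The upper panel gives the fold enrichment of each of the 70 peaks (log axis) by distance in kb from the first member, black for the 41 at members and grey for the other 29, and the lower panel shows the members by subfamily, drawn at least 3 kb wide; peaks stand along most of the interval, with few over the close-set row of Obox4 pseudogenes near its middle.

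Peak strength is given as the authors' pileup, which counts antisera fragments at the summit, and as the authors' fold enrichment, the pileup plus 1 over the local background plus 1. The local background is the count the caller expected at the summit, and its lowest value in the list is 4.01 fragments, called the floor. At 35 of the 41 peaks near members the background stood at that floor, so the fold there follows the pileup alone. The background exceeded 6 fragments nowhere but at *Obox4-ps28*. Intervals in the text are 95% Poisson intervals of the pileup with the background held fixed, and they cover counting error only. The 41 peaks had a median fold enrichment of 11.2 (range 3.63 to 137) and a median pileup of 55, against 8.02 and 41 over all 51356 peaks. Taking the highest peak of each member, the median over the 28 was 11.9, against 10.6 over all genes that had a peak.

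Among the protein-coding genes, which encode the family's homeodomain proteins, *Obox1* had the highest peak. Its pileup was 235 fragments over a background of 4.49, a 43.0-fold enrichment (37.7 to 48.9). The summit lay 2080 bp beyond the 3′ end, 11669 bp from the transcript start, in a peak at chr7:15558621-15559217. *Obox1* had no other peak within 5 kb.

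*Obox2*, whose promoter window matched that of *Obox1* over 203 columns, also had a single peak beyond its 3′ end. Its pileup was 88 over 4.01, a 17.8-fold enrichment (14.3 to 21.8), with the summit 2407 bp past the gene. The *Obox1* peak was thus on the same side of the gene and stronger, and the intervals of both did not overlap.

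*Obox5* had the most peaks of any member, 5 in all, with peaks on both sides of the gene and 2 inside it. The highest, with a pileup of 128 and 25.7-fold enrichment (21.5 to 30.6), lay 2392 bp beyond the 3′ end, within 15 bp of the offset seen at *Obox2*. The next, with a pileup of 88 and 17.8-fold enrichment (14.3 to 21.8), lay 2577 bp before the transcript start. A weaker peak, with a pileup of 25, lay 1696 bp before the start at 5.19-fold. Those inside, with pileups of 28 and 31, lay 374 and 7310 bp past the start at 5.78-fold and 6.38-fold. The strong peaks of *Obox5* therefore flanked the gene, and the peaks inside it were weak.

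*Obox7* had a single peak, 2558 bp before its transcript start, with a pileup of 53 and 10.8-fold enrichment (8.12 to 14.0). This is within 19 bp of the upstream offset at *Obox5*, whose promoter is its closest match, and both peaks were wide, at 1185 and 1319 bp. No peak was called within 5 kb of the 3′ end of *Obox7*, and none was called within 5 kb before the start of *Obox1* or *Obox2*.

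*Obox6*, the member at the far end of the cluster, had peaks 1729 and 3366 bp below its lower-coordinate end. Their pileups were 59 and 111, at 12.0-fold (9.16 to 15.4) and 22.3-fold (18.4 to 26.9). The highest peak of *Obox3* was the lowest among those of the coding genes. A pileup of 28 lay 1721 bp beyond its 3′ end at 5.78-fold (3.91 to 8.27), and a pileup of 30 lay inside, 1292 bp past the transcript start, at 5.65-fold.

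In order of their highest peak, the coding genes ran *Obox1*, *Obox5*, *Obox6*, *Obox2*, *Obox7* and *Obox3*. *Obox1* stood above the rest beyond counting error. The intervals of *Obox5* and *Obox6*, of *Obox6* and *Obox2*, and of *Obox7* and *Obox3* overlapped, while those of *Obox2* and *Obox7* did not. This order compares summits in 1 library and carries no estimate of variation between cultures.

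**Figure D2:**
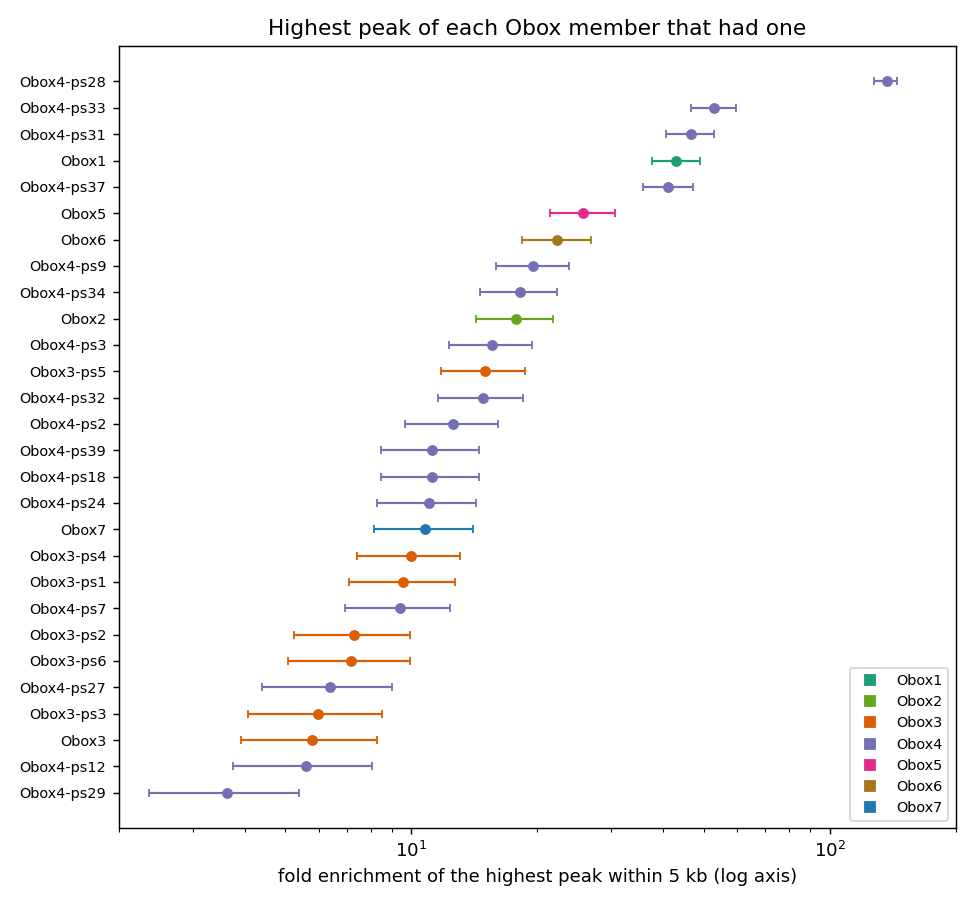
Highest peak of each of the 28 Obox members that had one. Points give fold enrichment (log axis), coloured by subfamily, with 95% Poisson intervals of the pileup; Obox4-ps28 stands alone at 137-fold, Obox1 is level with Obox4-ps31 and Obox4-ps37, and Obox3 copies lie between 5.78-fold and 15.0-fold.

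The subfamilies *Obox1*, *2*, *3*, *5* and *6*, coding genes and pseudogenes together, had a peak at 11 of 14 members (78.6%), against 16 of 38 (42.1%) of the *Obox4* pseudogenes and 33.4% of all genes. *Obox7* belongs to neither set. The backgrounds differ as well, since *Obox4* pseudogenes are short (210 to 1763 bp) and 18.0% of all pseudogenes of that length range had a peak. Both sets lie almost wholly in the dense interval described above, whose part in these shares was not tested. Within 1 kb of the member the contrast was not seen, with 2 of 14 (14.3%) against 7 of 38 (18.4%), beside 23.5% of all genes and 6.38% of pseudogenes. Within 20 kb the shares were 14 of 14 and 76.3%, beside 56.8% of all genes and 48.2% of pseudogenes. The median peak height gave the opposite order. The median of the highest fold was 9.97 over the 11 and 13.7 over the 16, with overlapping ranges of 5.78 to 43.0 and 3.63 to 137. Of the 11, 7 were *Obox3* copies, with a median of 7.29. *Obox1*, *Obox2*, *Obox5* and *Obox6*, at 17.8 to 43.0, each lay above the *Obox4* median. No test was run between the subfamilies.

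**Figure D3:**
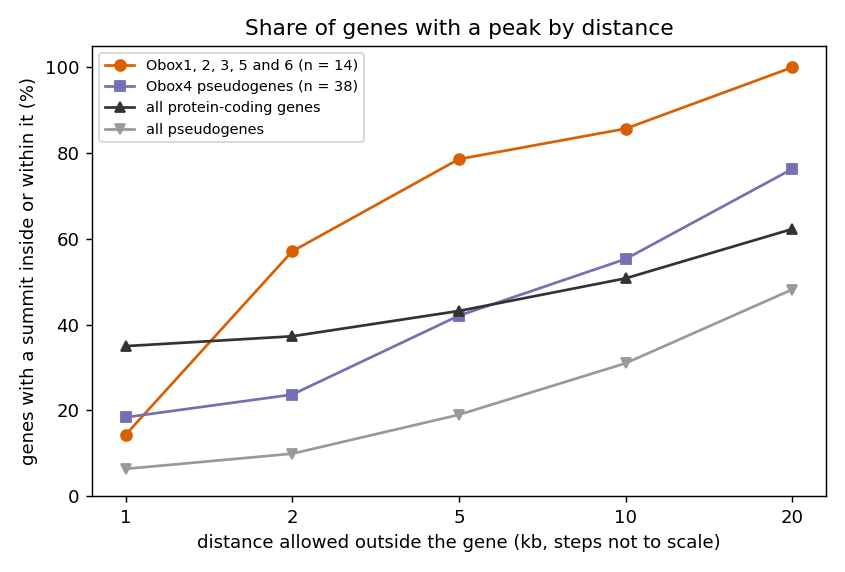
Share of genes with a peak summit inside or within 1, 2, 5, 10 or 20 kb. Lines show the 14 members of Obox1, 2, 3, 5 and 6, the 38 Obox4 pseudogenes, all protein-coding genes and all pseudogenes; the first set rises from 14.3% at 1 kb to 78.6% at 5 kb, and the Obox4 pseudogenes lie above all pseudogenes at each distance.

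The *Obox3* copies were the most regular. Of its 9 members, 7 had a peak, and these include *Obox3* itself and 5 pseudogenes, *Obox3-ps2* to *Obox3-ps6*, of over 10 kb. Each of these 6 long copies had exactly 1 summit below its lower-coordinate end, at 1721 to 1873 bp, which for *Obox3* is the 3′ side. The offsets were 1860 bp at *Obox3-ps2*, 1788 at *Obox3-ps3*, 1871 at *Obox3-ps4*, 1873 at *Obox3-ps5* and 1749 at *Obox3-ps6*.

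All of these peaks were modest. Pileups were 39 at *Obox3-ps2*, 29 at *Obox3-ps3*, 49 at *Obox3-ps4*, 74 at *Obox3-ps5* and 35 at *Obox3-ps6*, beside 28 at *Obox3*. Fold enrichment ran from 5.78 at *Obox3* to 15.0 at *Obox3-ps5* (11.8 to 18.7). The interval of *Obox3-ps5* lay above those of *Obox3*, *Obox3-ps2*, *Obox3-ps3* and *Obox3-ps6* and overlapped that of *Obox3-ps4* (7.43 to 13.1). Of the short copies, *Obox3-ps1* had a 9.57-fold peak 2887 bp away, *Obox3-ps7* had none nearer than 10491 bp, and *Obox3-ps8* on chromosome 17 lay 5334 bp from a 22.9-fold peak, just beyond the limit. The other outlying copy, *Obox6-ps1*, was 15704 bp from the nearest summit.

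On their higher side, 4 of the 6 long *Obox3* copies are followed at 2310 to 2426 bp by an *Obox4* pseudogene. Past 3 of these pairs came a summit at nearly the same place, 5535 bp above *Obox3-ps3*, 5519 bp above *Obox3-ps5* and 5542 bp above *Obox3*. The respective peaks had pileups of 46, 54 and 73 and are the ones counted for *Obox4-ps7* (9.37-fold), *Obox4-ps24* (11.0-fold) and *Obox4-ps32* (14.8-fold). After the pair of *Obox3-ps2* and *Obox4-ps5* the next summit was 17112 bp above the *Obox3* copy. These *Obox4* calls therefore lie in a repeated arrangement that also holds an *Obox3* copy.

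*Obox4* pseudogenes had the highest single peak of the family, at *Obox4-ps28*. Its pileup was 978 over a background of 6.17, a 137-fold enrichment (128 to 145), 2569 bp below the pseudogene in a peak at chr7:15440049-15440719. It ranked 27th by fold among all 51356 peaks, and its local background was the highest of any peak in the Obox interval. The neighbouring copies *Obox4-ps27* and *Obox4-ps29* had weak peaks, at 6.38-fold (pileup 31) and 3.63-fold (pileup 23, background 5.61), and the latter was the lowest of any member. Copies of the same length, 1763 bp, thus held both extremes.

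Other strong peaks came in pairs on the lower side of a pseudogene. At *Obox4-ps31* the summits lay 472 and 2590 bp below the lower end, with pileups of 91 and 232 and folds of 18.4 (14.8 to 22.5) and 46.5 (40.7 to 52.8). At *Obox4-ps33* they lay 472 and 2877 bp below it, with pileups of 114 and 264 and folds of 22.9 (19.0 to 27.5) and 52.9 (46.7 to 59.6). At *Obox4-ps37* they lay 495 and 2555 bp below it, with pileups of 85 and 205 and folds of 17.2 (13.7 to 21.2) and 41.1 (35.7 to 47.1). In each of the 3 pairs the farther peak was the higher, by 2.31 to 2.53 times, and the intervals did not overlap. This order was not general, since at *Obox4-ps3* the farther of its summits had 0.563 times the fold of the nearer, and at *Obox4-ps2* each farther summit was lower than the nearer ones, by ratios of 0.396 to 0.736.

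The nearer position recurred without a partner. *Obox4-ps9* had a 19.5-fold peak (pileup 97) at 480 bp, *Obox4-ps12* a 5.59-fold peak (pileup 27) at 476 bp and *Obox4-ps18* an 11.2-fold peak (pileup 55) at 376 bp. In all, 6 *Obox4* pseudogenes had a summit 376 to 495 bp below the lower end. The farther position, 2555 to 2590 bp, was met at 4 *Obox4* pseudogenes and at *Obox5* and *Obox7*, with folds from 4.99 at *Obox4-ps2* to 137 at *Obox4-ps28*. On the higher side, summits 2078 to 2182 bp beyond the end were found at 5 members, *Obox4-ps24*, *Obox4-ps32*, *Obox4-ps34*, *Obox4-ps39* and *Obox1*. *Obox4-ps34* had 18.2-fold enrichment (pileup 90) and *Obox4-ps39* 11.2-fold (pileup 55). These offset groups were formed after the positions were seen, and no test was made of them.

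**Figure D4:**
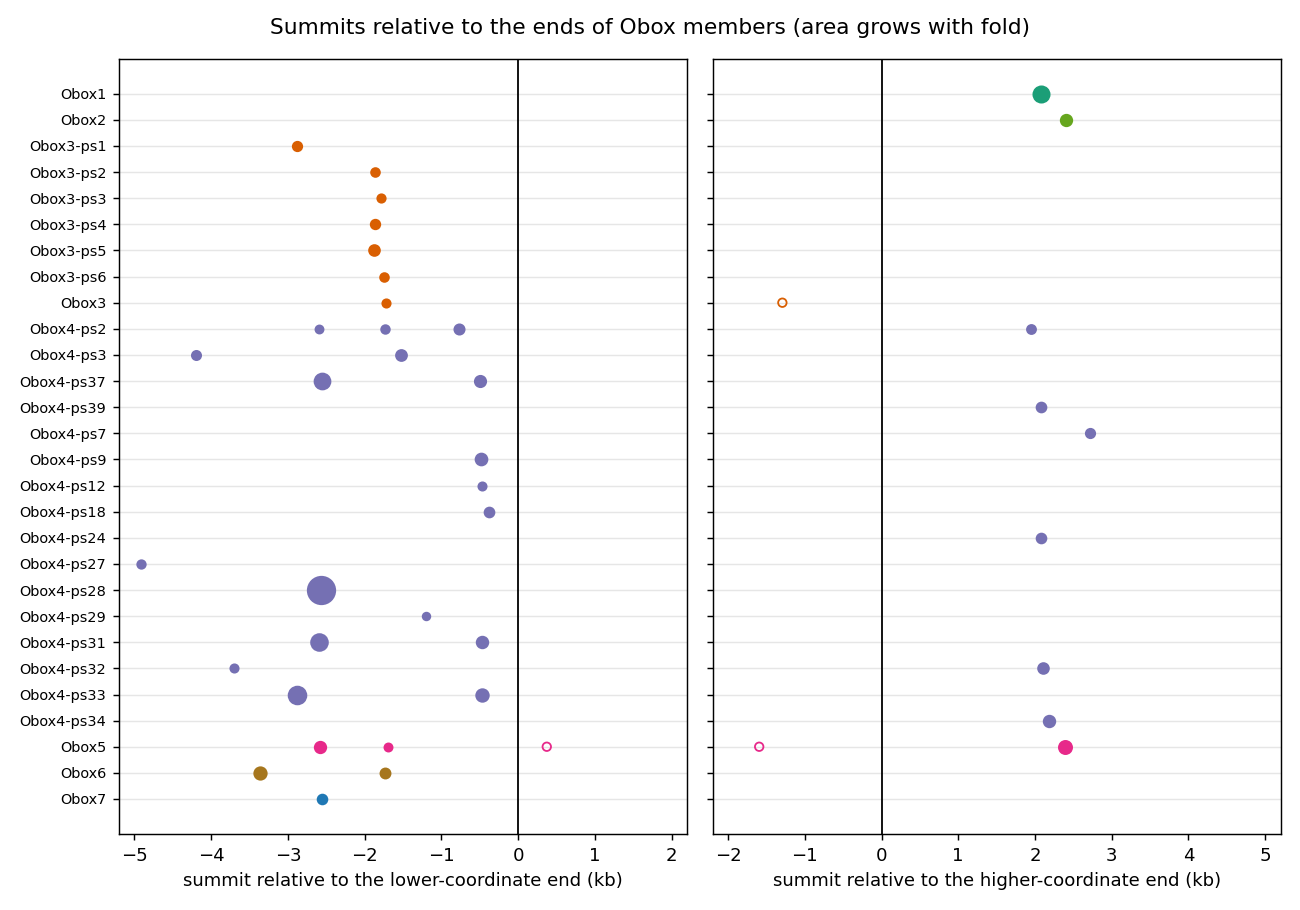
Summits relative to the lower-coordinate end (left) and the higher-coordinate end (right) of each Obox member with a peak, in kb. Filled points are summits outside the member, with area growing with fold enrichment, and open points are summits inside it; the 6 long Obox3 copies line up 1721 to 1873 bp below the lower end, and 6 Obox4 pseudogenes line up at 376 to 495 bp.

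The tandem row of *Obox4-ps11* to *Obox4-ps23* had fewer peaks than the rest of the interval and about as many as chromosome 7 as a whole. Only *Obox4-ps12* and *Obox4-ps18* of these 13 pseudogenes had a peak (15.4%), against 14 of the other 25 *Obox4* pseudogenes (56.0%) and 18.0% of all pseudogenes of the *Obox4* length range. The starts of the 13 lie 10382 to 11368 bp apart (median 11330), and the 136 kb row held 2 peaks, or 14.7 per Mb (SE 10.4), close to the 17.0 per Mb of the chromosome. No local background above the floor accompanied those peaks. Outside the row, *Obox4-ps27*, *Obox4-ps28* and *Obox4-ps29* start at 15431617, 15442953 and 15454277, a spacing within the same range, and each of them had a peak. Next to the row, 7104 bp above *Obox4-ps23*, stood a 49.7-fold peak with a pileup of 248, the highest in the interval outside the 5 kb limit. Whether reads could be placed within this row was not tested.

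The *Obox4* copies were also counted by length. None of the 7 copies of 723 to 729 bp had a peak, and of the 5 copies of 1276 bp only *Obox4-ps12* did. Peaks were found at 7 of 13 copies of 1756 to 1763 bp and at 8 of 13 copies of other lengths. Over the whole *Obox4* length range, 18.0% of all pseudogenes had a peak, and no share was computed for each length class. Of the 13 copies of 1756 to 1763 bp, 7 lie in the tandem row and 1 of these had a peak, while all 6 outside the row had one. The length classes were set after the lengths were seen, and *Obox4-ps11* (729 bp) and all 5 copies of 1276 bp also belong to the row.

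The remaining members with peaks stand at the start of the cluster. *Obox4-ps2* had 4 peaks, the most of any *Obox* pseudogene, led by a 12.6-fold peak (pileup 62) 764 bp below it. *Obox4-ps3* had 2, led by a 15.6-fold peak (pileup 77) at 1525 bp. *Nlrp5-ps*, a transcribed pseudogene of an NLR-family gene, lies from 14530654 to 14623066, over *Obox4-ps3* but above *Obox4-ps2*. Of the 8 peaks inside it or within 5 kb, 6 are also counted for members.

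Few members lay close to the 5 kb limit. The members nearest to it on the inside were *Obox4-ps27* at 4919 bp, *Obox3-ps1* at 2887 bp and *Obox4-ps7* at 2721 bp. Just outside were *Obox3-ps8* at 5334 bp, *Obox4-ps36* at 7013 bp, from the 41.1-fold peak that is counted for *Obox4-ps37*, and *Obox4-ps23* at 7104 bp. The 25 members without a peak lay 5334 to 32289 bp from the nearest summit.

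Other homeobox genes give a measure of the wider class. In a list of 36 paired-like, oocyte and embryo homeobox genes, all protein-coding, 11 (30.6%) had a peak, against 43.2% of protein-coding genes. Of the 42 *Rhox* genes and pseudogenes, the X-linked reproductive homeobox cluster, 8 (19.0%) had one, against 33.4% of all genes. *Crx*, just beyond the Obox interval, had 2 peaks, with 9.18-fold enrichment at the higher. *Crxos*, next to it, had 1, at 6.98-fold. *Nobox*, a homeobox regulator of oocyte growth, had the highest fold of the list, 42.3, with the summit 2422 bp from the gene, close to the value at *Obox1*. *Nanog* and *Otx2* had no peak within 5 kb.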

How the data were processed

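Each library was a single ChIP-seq sample, grouped by its antibody label. Per the submitters' processing notes, BWA, MACS2 and the build mm10 were used. MACS (version 2.1.0.20151222, per the file headers) compared paired-end antisera fragments with the control at a q-value threshold of 0.01, keeping 1 fragment per position. The header names the input alignments as filtered, by a rule not given in the sources used here. In the deposited table, pileup is a signal (antisera fragments at the summit), fold enrichment is a ratio to local background, and the authors' p-values and q-values are given as −log10.

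The local background was recovered from pileup and fold with a pseudocount of 1. Recomputed Poisson −log10 p lay within 1% of the deposited value for 100% of 50196 peaks with a finite value. The floor of 4.01 fragments was shared by 78.0% of peaks (tolerance 0.01). The primary assembly of GRCm38.p6, from which gene positions came, is that of mm10. Gene strand was taken from the promoter table and was not used for other members. Promoters were aligned locally (Biopython 1.88, match 1, mismatch -1, gap opening -3, extension -1).

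Text names every coding *Obox* gene, every pseudogene of other subfamilies than *Obox4*, the 8 pseudogenes of highest and 3 of lowest fold, and 3 members on each side of 5 kb. Other members were named after their values were seen. Members, lists and groups were chosen with earlier results of these data known. Peak assignment was tested on simulated data, with 200 of 200 planted peaks assigned as placed. Alternatives were other distances, the gene body, the peak interval, stricter thresholds, single assignment and removal of high backgrounds. Analyses used Python 3.11.15 and pandas 2.3.3.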

Additional observations from a re-analysis of the deposited data

How the results depend on the processing

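Counts at members depended on the distance and strength required of a peak. The number of members with a peak, 28 at 5 kb, was 9 within 1 kb, 17 within 2 kb, 44 within 20 kb, 2 for gene bodies alone and 6 with the strongest 10% of peaks by −log10 p, a setting in which 6.10% of all genes had a peak. For *Obox1*, *2*, *3*, *5* and *6* the count of 11 was 2 in each of the settings of 1 kb, the gene body and the strongest 10%. For *Obox4* the count of 16 was 7 within 1 kb, 9 within 2 kb, 29 within 20 kb, 0 for gene bodies and 4 of the strongest 10%. The 41 separate peaks became 10 at 1 kb, 22 at 2 kb, 63 at 20 kb, 3 for gene bodies and 6 of the strongest 10%. These moves follow from how the settings are built, with fewer or more peaks admitted. For gene bodies alone no share of all genes is given, so those counts have no background to be read beside. Against all genes the members' share was 17.0% to 23.5% within 1 kb, 32.1% to 26.2% within 2 kb and 83.0% to 56.8% within 20 kb. At 1 kb it thus lay below that of all genes, though above the 6.38% of pseudogenes. The median of the highest fold, 11.9, was 11.2 with the nearest peak of each member, where 6 members took another peak. The other 30 of 49 recomputed values, like this median, stayed within 1.5 times of those reported. No paired analysis was possible because each group has 1 library. Depth limits weak summits most: a pileup of 23, the lowest of a member's highest peak, has an interval of 2.36 to 5.38 around its 3.63-fold enrichment.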
